A study of Homo sapiens with 18 samples.

Results

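Interferon-stimulated genes are the genes that cells switch on when they sense viral nucleic acid or receive interferon. The 44 genes described here were taken by symbol from the table of gene expression of U2OS-MycER cells, which holds 23399 genes, and cover RNA sensors, transcription factors, the IFIT and OAS families, ISG15 and its conjugation enzymes, restriction factors, the PARP9 complex and further induced genes.

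In the interferon pathway, RNA sensors of the RIG-I family signal to interferon genes, secreted interferon binds its receptor, and JAK kinases phosphorylate STAT proteins. With IRF9, these form the ISGF3 complex, which binds interferon-stimulated response elements (ISREs) in promoters. Unphosphorylated STAT proteins, IRF1 and other IRFs also keep many of these genes at a basal level in cells that receive no interferon.

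U2OS is a human osteosarcoma line, and U2OS-MycER cells carry a retroviral transgene for c-Myc fused to the estrogen receptor, which 4-hydroxytamoxifen (OHT) activates. They were transfected either with a pool of siRNAs to silence RAD21 (siRAD21), whose product is part of the cohesin ring that holds sister chromatids together and anchors chromatin loops, or with an siRNA to Renilla luciferase (siCtrl). OHT (400 nM) or its solvent ethanol was added with the siRNA, and cells were taken for RNA 24 or 48 h later. The 18 RNA-seq libraries fall into 8 groups: siCtrl and siCtrl OHT at 48 h have 3 libraries each, and siCtrl, siCtrl OHT, siRAD21 and siRAD21 OHT at 24 h and siRAD21 and siRAD21 OHT at 48 h have 2 each.

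Cells of every group carried MycER and were transfected with siRNA, and those without OHT received ethanol. No library comes from untransfected cells, from a second siRNA against RAD21 or from OHT-treated cells without MycER. Effects of the siRNA pool apart from the loss of RAD21, and of OHT apart from MycER, therefore cannot be told apart from those described below. In RNA from whole cultures, fewer cells that express a gene and less RNA per cell cannot be told apart either.

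RAD21, the target of the siRNAs, fell from 70.7 ± 2.04 eRPKM (exonic reads scaled by exon length and by library depth; mean ± SD, n = 2) to 18.4 ± 0.366 (n = 2) at 24 h. At 48 h it fell from 93.1 ± 3.96 (n = 3) to 11.2 ± 0.105 (n = 2). The libraries held 9647501 to 12678599 reads on genes. The siRAD21 OHT libraries at 48 h differed from each other by less than the sampling noise of their reads (chi-square per gene 0.985 over 11169 genes, z = -1.1), whereas the other pairs of libraries of 1 group gave 1.072 to 4.423, so this pair was counted as 1 sample in group means. Both libraries were kept in means over all libraries and in the fit below, whose standard errors and p-values count them as separate samples. Genes that lost a call in comparisons of siRAD21 OHT cells at 48 h when the pair was averaged are named with those results. Of 6 mesenchymal and bone markers, VIM, SPARC, COL1A1 and RUNX2 were expressed, while COL1A2 was at most 0.109 eRPKM and TWIST1 was listed at 0 in 17 of 18 libraries. Of 8 markers of blood, epithelial and endothelial cells, PTPRC, CD3E and CD14 were at most 0.517 eRPKM in any library, while EPCAM was at 2.56 to 12.9 eRPKM.

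A gene was tested when its mean over all libraries was at least 1 eRPKM, which 34 of the 44 genes and 14993 genes in all reached. Fold changes below are differences of log2(eRPKM + 0.5) from 1 limma model of all libraries, given with their standard errors, and the adjusted p follows Benjamini and Hochberg over all genes tested. A gene is said to have risen or fallen when its adjusted p was below 0.05 and its log2 fold change was past 0.5 in either direction. The methods of the study call the replicates biological. The labels do not say which cultures were separate, so p-values measure the spread between these libraries.

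The promoters of these genes carry ISREs more often than promoters at large. In the RefSeq promoter sequences of GRCh38.p14 (250 bases before to 50 bases after each start), the ISRE core was searched on both strands as GAAA, any 2 bases and GAAA. It was found in 30 of 51 promoters (58.8%) of the 38 genes with an entry, against 3.57% of all 35116 promoters. At least 1 promoter of 25 genes held it. The gamma-activated site core TTCNNNGAA, which STAT dimers bind, was in 14 of 51 promoters (27.5%), against 7.66% of all. The E-box CACGTG, which Myc binds with its partner MAX, was in 6 of 51 (11.8%), against 7.26% of all. Those promoters belong to EIF2AK2, HERC5, IRF9, ISG20, SP100 and TRIM25. ISRE and gamma-activated site matches overlapped each other in 5 promoters, and ISRE matches overlapped one another in 5. IFIT2, MX2, OAS2, OASL, IRF7 and USP18 had no entry.

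Stretches of 60 bases around the ISRE cores of 7 genes are printed here, each read from 5′ to 3′ on the strand of its gene, with the ISRE core in capitals. IFIT3, IFIT1 and IFIT5 are neighbours that responded differently below, DDX60 and SAMD9 rose with siRAD21 and fell with OHT, OAS3 fell with siRAD21, and ISG15 passed the test in no comparison of siRNA or OHT. The stretches lie at chr10:89327850-89327909 (IFIT3, plus strand), chr10:89392495-89392554 (IFIT1, plus strand), chr10:89414508-89414567 (IFIT5, plus strand), chr4:168318771-168318830 (DDX60, minus strand), chr7:93118081-93118140 (SAMD9, minus strand), chr12:112938414-112938473 (OAS3, plus strand) and chr1:1013365-1013424 (ISG15, plus strand), all upstream of the start.
IFIT3: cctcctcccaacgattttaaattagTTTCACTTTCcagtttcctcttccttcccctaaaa
IFIT1: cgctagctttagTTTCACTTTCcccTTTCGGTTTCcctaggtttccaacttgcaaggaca
IFIT5: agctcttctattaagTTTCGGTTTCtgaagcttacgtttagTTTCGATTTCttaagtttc
DDX60: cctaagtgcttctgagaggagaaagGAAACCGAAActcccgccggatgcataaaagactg
SAMD9: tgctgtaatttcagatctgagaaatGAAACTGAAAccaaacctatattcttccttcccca
OAS3: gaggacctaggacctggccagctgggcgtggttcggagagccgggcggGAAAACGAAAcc
ISG15: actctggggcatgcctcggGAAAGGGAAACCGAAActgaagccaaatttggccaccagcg
IFIT1, IFIT5 and ISG15 each show 2 matches, and those of ISG15 overlap. The other 4 stretches hold 1 match each. An ISRE core was found for 5 of the 9 genes with a promoter entry that rose with siRAD21 at 48 h, and for 13 of the 20 that did not pass the test in that comparison. It was found for 7 of the 10 that fell with OHT in siCtrl cells at 48 h, and for 11 of the 19 that did not pass the test there. These matches are letters in a sequence and not measured binding.

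Expression of the 44 genes in siCtrl cells reached up to 49.7 eRPKM, the level of ISG15 in a library at 24 h. ISG15, a ubiquitin-like protein that is conjugated to viral and cellular proteins, had the highest mean over all libraries (36.2 eRPKM), followed by the E3 ligase TRIM21 (32.4), IFI6 (28.1), DTX3L (27.2) and PARP14 (24.7). These levels are per length of transcript, and the authors removed PCR duplicates, which caps the value a gene can reach. The highest value of any gene in a library was 137.9 to 174.2 eRPKM.

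The 10 genes that were not tested include some of the best known interferon-stimulated genes. MX1, a GTPase that blocks influenza virus, had a mean of 0.602 eRPKM over all libraries, and its relative MX2 0.345. OAS2 had a mean of 0.1004 eRPKM, HERC5, the main ligase for ISG15, 0.0806, and EPSTI1 0.0063. IRF9, the DNA-binding subunit of ISGF3, was listed at 0 in all 18 libraries, which can be a failed estimate, so no absence of its RNA can be read from it. The limit of 1 eRPKM ran between IFI27 (0.813), on the untested side, and XAF1 (1.07). RSAD2, which encodes the antiviral enzyme viperin, was at 0.672, 0.3698 and 0.396 eRPKM in siCtrl and 1.096 and 1.06 in siRAD21 cells at 48 h, or 23, 13 and 15 against 42 and 38 reads. IFI44L was at 1.24, 1.58 and 1.86 eRPKM in siCtrl, 0.482, 0.494 and 0.518 in siCtrl OHT, 0.593 and 0.517 in siRAD21 and 0.176 and 0.173 in siRAD21 OHT cells at 48 h. The siCtrl libraries were the highest for IFI44L and the siRAD21 libraries the highest for RSAD2, and neither gene was tested.

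**Figure D1:**
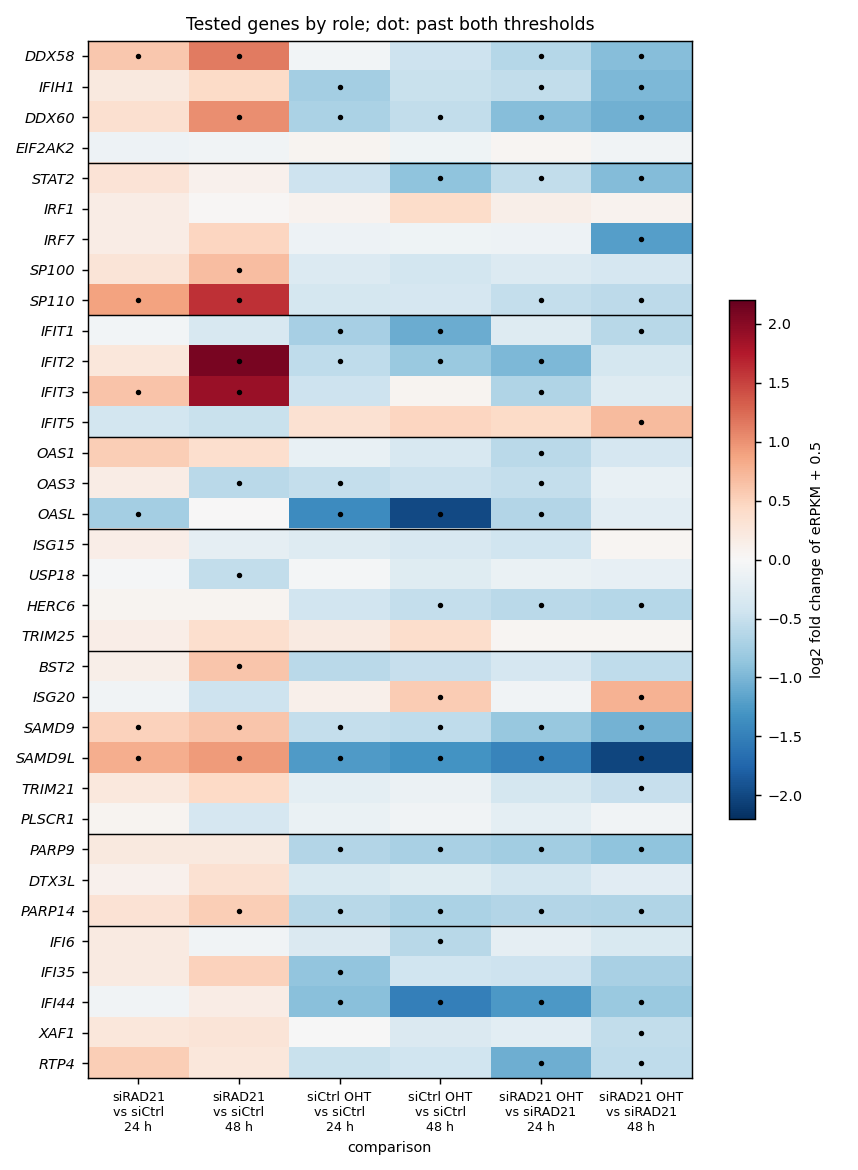
Log2 fold changes of eRPKM + 0.5 of the 34 tested genes (lines, grouped by role) in 6 comparisons (columns), with red for higher and blue for lower values and a dot where a gene passed both thresholds. The siRAD21 columns hold 5 and 10 genes that rose, and the 4 OHT columns are mostly blue, with 12, 12, 17 and 16 genes that fell.

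Silencing of RAD21 was compared with the control siRNA to ask which of these genes respond to the loss of cohesin. At 48 h, 10 of the 34 tested genes rose (29.4%, where 12.6% of all genes tested rose) and 2 fell (5.88%, where 11.2% of all fell). Those that rose were IFIT2, IFIT3, SP110, DDX58, DDX60, SAMD9L, SP100, SAMD9, BST2 and PARP14, and those that fell were OAS3 and USP18. The median log2 fold change of the 34 genes was 0.31, beside -0.01 for all genes tested, with 25 values above 0 and 9 below. After quantile normalization 10 rose and 4 fell. At 24 h, 5 genes rose (14.7%, against 5.83% of all) and 1 fell (2.94%, against 2.6% of all), so that 6 passed both thresholds where 8.43% of all genes did, and the median was 0.20.

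IFIT2 and IFIT3, which bind viral RNA in a complex with IFIT1 and restrain its translation, rose the most. IFIT2 was at 1.82, 2.09 and 2.02 eRPKM in siCtrl cells at 48 h and at 8.97 and 11.05 in siRAD21 cells. Both siRAD21 libraries lay above all controls, and the log2 fold change was 2.08 ± 0.15 (adjusted p = 5.24e-08), a 4.23-fold difference on the scale of eRPKM + 0.5. The values rest on 62, 73 and 76 reads in siCtrl and 342 and 394 in siRAD21 libraries. IFIT3 was at 5.46, 6.17 and 5.31 eRPKM in siCtrl and at 22.2 and 22.4 in siRAD21 cells. Again the groups did not overlap, and the log2 fold change was 1.89 ± 0.072 (adjusted p = 1.52e-10). IFIT1, which recognises the 5′ end of foreign RNA, was at 7.88, 9.25 and 9.33 eRPKM in siCtrl and 6.49 and 7.15 in siRAD21 cells, so its siRAD21 libraries were the lower ones. Its log2 fold change of -0.35 (adjusted p = 0.00292) did not reach the fold threshold. IFIT5 gave -0.496 (adjusted p = 4.42e-05), just short of that threshold, and it passed without siCtrl 48 h replicate 1 (-0.55), without siCtrl 48 h replicate 3 (-0.51) and without siRAD21 48 h replicate 2 (-0.51). Of the 4 IFIT genes, 2 rose and 2 had values below 0.

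Among the RNA sensors, DDX58, which encodes RIG-I, was at 5.74, 5.54 and 5.41 eRPKM in siCtrl and 12.98 and 12.9 in siRAD21 cells at 48 h. Its siRAD21 libraries lay well above the controls, by a log2 fold change of 1.15 ± 0.088 (adjusted p = 8.52e-08). DDX60, a helicase linked to RIG-I signalling, was at 1.42, 1.43 and 1.79 eRPKM in siCtrl and 3.64 and 3.68 in siRAD21 cells. It rose by 1.03 ± 0.13 on the log2 scale (adjusted p = 1.09e-05), with no overlap. IFIH1, which encodes the sensor MDA5, gave 0.43 (adjusted p = 0.0053) and did not reach the fold threshold. EIF2AK2, the kinase PKR that stops translation when it binds double-stranded RNA, was at 21.1, 20.8 and 20.7 eRPKM in siCtrl and 20.2 and 19.2 in siRAD21 cells (log2 fold change -0.08, adjusted p = 0.256).

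The nuclear body proteins SP110 and SP100, partners of PML that repress viral genomes, rose as well. SP110 was at 4.99, 5.92 and 6.27 eRPKM in siCtrl and 18.2 and 18.6 in siRAD21 cells at 48 h. Its lowest siRAD21 library was far above its highest control, and the log2 fold change was 1.605 ± 0.094 (adjusted p = 6.63e-09). SP100 was at 7.93, 7.83 and 8.29 eRPKM in siCtrl and 12.6 and 13.6 in siRAD21 cells, without overlap, and gave 0.67 ± 0.061 (adjusted p = 4.91e-07). STAT2 and IRF1, factors that drive these genes, gave 0.09 and 0.02 (adjusted p = 0.129 and 0.836), and neither passed the test. The strand of the RNA is not kept by the library kit, so reads from the 170 exon bases that SP110 shares with SP140, the 65 that IFIT2 and the 94 that IFIT3 share with LIPA cannot be assigned to 1 gene.

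SAMD9 and its neighbour SAMD9L, restriction factors of poxviruses and regulators of cell growth, rose at both times. SAMD9L was at 5.05, 6.53 and 5.43 eRPKM in siCtrl and 10.6 and 11.8 in siRAD21 cells at 48 h (log2 fold change 0.93 ± 0.13, adjusted p = 3.3e-05). Its groups were also apart at 24 h, at 5.79 and 6.78 against 10.8 and 11.8 eRPKM (log2 fold change 0.799 ± 0.14). SAMD9 was at 17.7, 18.5 and 16.04 eRPKM in siCtrl and 26.1 and 27.6 in siRAD21 cells at 48 h and rose by 0.61 ± 0.097. PARP14, an ADP-ribosyltransferase, rose by 0.54 ± 0.060. TRIM21 was at 27.6, 30.4 and 29.1 eRPKM in siCtrl and 38.8 and 40.4 in siRAD21 cells at 48 h, without overlap. It did not pass both thresholds, but did so after quantile normalization (log2 fold change 0.519). BST2, which encodes tetherin and holds budding virus at the cell surface, was at 4.37, 4.26 and 4.15 eRPKM in siCtrl and 6.73 and 6.78 in siRAD21 cells. Its groups did not overlap, but its log2 fold change of 0.61 ± 0.24 was near the threshold of the test (adjusted p = 0.0454). The adjusted p of BST2 was 0.0542 to 0.137 when any library of siCtrl, siRAD21 or siRAD21 OHT at 48 h, or siCtrl OHT 48 h replicate 2, was left out, and 0.0544 to 0.0912 in 6 other settings.

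OAS3 and USP18 went the other way. OAS3, which makes the second messenger that activates RNase L, was at 9.05, 8.63 and 8.496 eRPKM in siCtrl and 5.66 and 5.499 in siRAD21 cells at 48 h. All controls lay above both siRAD21 libraries, and it fell by 0.601 on the log2 scale (SE 0.069, adjusted p = 4.64e-06). USP18, which removes ISG15 from proteins and damps the interferon receptor, was at 4.14, 5.203 and 4.601 eRPKM in siCtrl and 2.702 and 3.42 in siRAD21 cells. It fell by 0.53 on the log2 scale (SE 0.125, adjusted p = 0.00223), but not past the fold threshold without siCtrl 48 h replicate 2 (-0.46) or without siRAD21 48 h replicate 1 (-0.39). ISG15 itself gave -0.19 (adjusted p = 0.0825), and OASL, a relative of the OAS enzymes that supports RIG-I, gave 0.000 (adjusted p = 1).

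**Figure D2:**
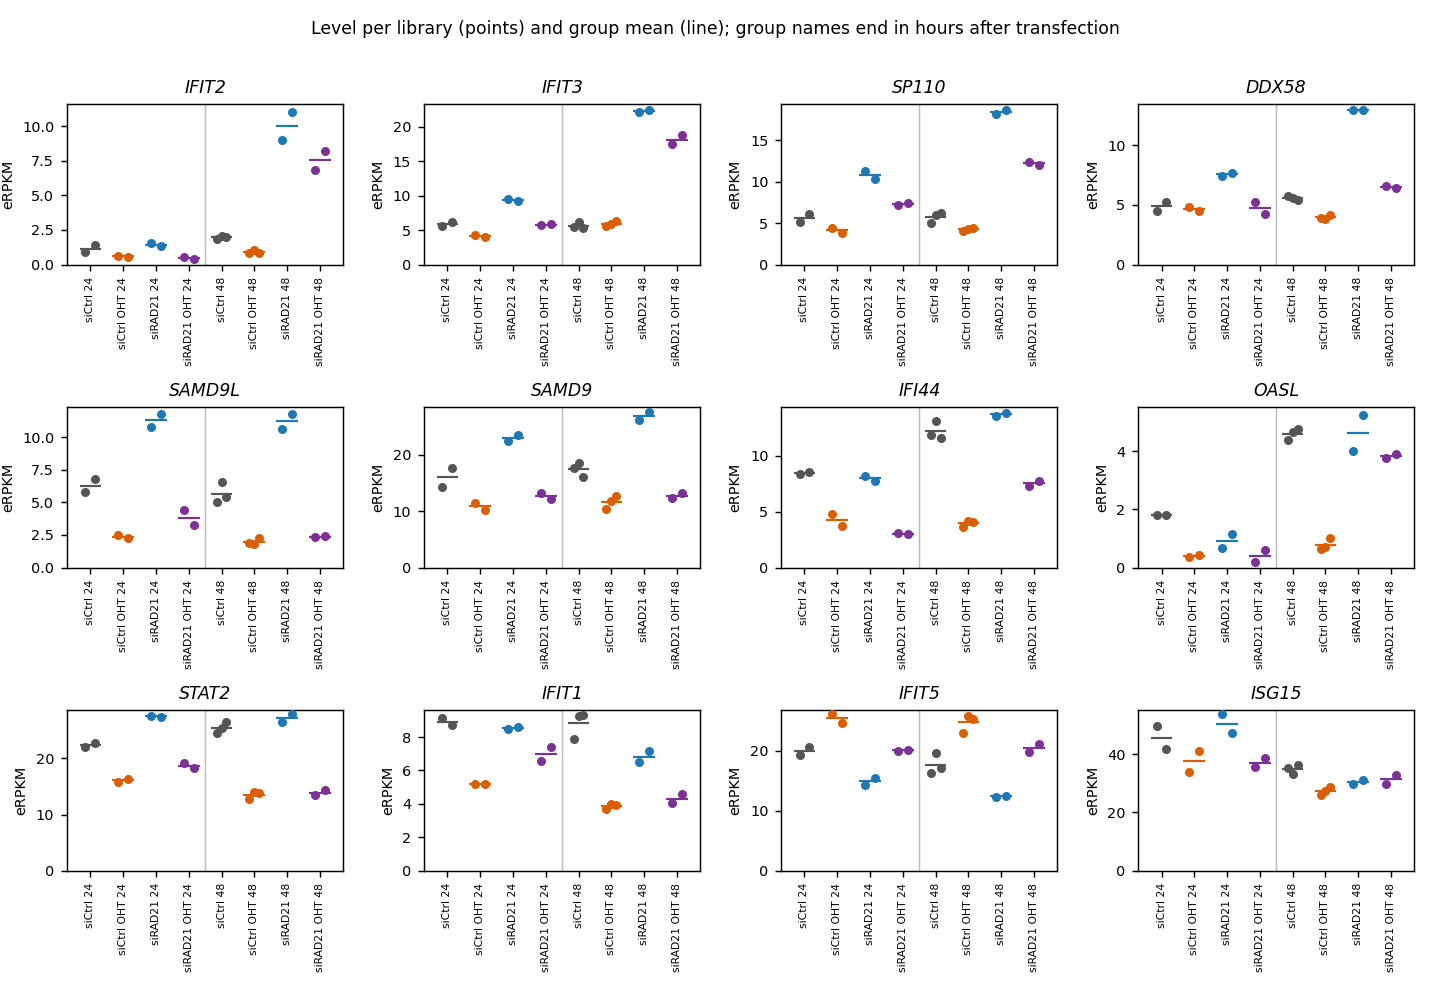
Expression in eRPKM of 12 genes in each library (points) and the mean of each group (lines), for 8 groups whose names end in the hours after transfection. IFIT2, IFIT3, SP110 and DDX58 stand highest in siRAD21 cells at 48 h, SAMD9L is lowest in the OHT groups, and OASL at 48 h is low in siCtrl OHT cells but not in siRAD21 OHT cells.

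The endothelial marker CDH5 was higher in siRAD21 cells too, at 0.173 to 0.358 eRPKM in siCtrl and 1.04 to 1.12 in siRAD21 libraries at 48 h, and was not tested. The summed level of the 8 markers of other cells was 6.23 to 7.21 eRPKM in siCtrl and 5.79 to 7.08 in siRAD21 libraries, and CD3E was at 0 in both groups. The part of CDH5 in these results was not tested.

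The response to siRAD21 grew between 24 and 48 h for a few genes. At 24 h, DDX58, IFIT3, SAMD9, SAMD9L and SP110 had risen, and all 5 rose at 48 h too. Of these, SP110 was at 5.15 and 6.05 eRPKM in siCtrl and 11.3 and 10.3 in siRAD21 cells at 24 h, without overlap (log2 fold change 0.89 ± 0.10, adjusted p = 2.61e-05). IFIT3 gave 0.63 ± 0.079 at that time. DDX58 gave 0.59, but 0.48 without siCtrl 24 h replicate 1, and SAMD9 gave 0.51, but 0.37 without siCtrl 24 h replicate 1 and 0.48 without siRAD21 24 h replicate 2, which is short of the fold threshold. OASL was the gene that fell at 24 h, from 1.797 and 1.82 to 0.662 and 1.14 eRPKM or from 41 and 48 to 17 and 30 reads (log2 fold change -0.74 ± 0.21, adjusted p = 0.0198). That call was lost without siCtrl 24 h replicate 1 (-0.75, adjusted p = 0.0785), siCtrl 24 h replicate 2 (-0.73, adjusted p = 0.0699) or siRAD21 24 h replicate 1 (-0.49, adjusted p = 0.205).

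The difference between the effects at 48 and 24 h was tested directly. It was positive past both thresholds for 5 of the 34 genes (14.7%, against 3.85% of all genes tested) and negative for 1 (2.94%, against 6.86%). Of the 34 genes, IFIT2 changed the most with time. It was at 0.889 and 1.42 eRPKM in siCtrl and 1.53 and 1.36 in siRAD21 cells at 24 h, where the groups overlapped, and its effect grew by 1.83 ± 0.22 on the log2 scale (adjusted p = 7.48e-05). The effect on IFIT3 grew by 1.26 ± 0.11 (adjusted p = 4.03e-06) and that on SP110 by 0.715 ± 0.14 (adjusted p = 0.00231). DDX60 and DDX58 gave 0.68 and 0.56 (adjusted p = 0.021 and 0.00691). The DDX58 value was 0.46 without siCtrl 24 h replicate 2, and the adjusted p of DDX60 was 0.0577 to 0.105 without siCtrl 24 h replicate 2, siRAD21 24 h replicate 1 or either siRAD21 48 h library. OAS3 gave -0.77 ± 0.10 (adjusted p = 0.000141): its siRAD21 libraries were above the controls at 24 h, at 11.02 and 10.8 against 9.605 and 9.74 eRPKM, and below them at 48 h. For SAMD9L the difference was 0.13 ± 0.19 (adjusted p = 0.688).

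**Figure D3:**
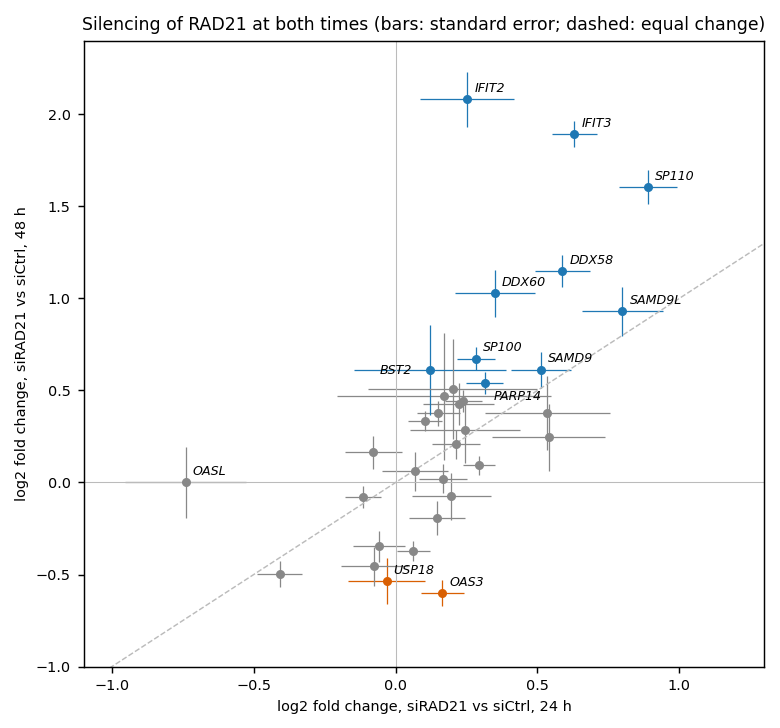
Log2 fold change with siRAD21 at 24 h (x axis) and at 48 h (y axis) of the 34 tested genes, with standard errors as bars, a dashed line of equal change, blue points for genes that rose and orange points for genes that fell at 48 h. IFIT2, IFIT3, SP110, DDX58 and DDX60 lie above the dashed line, SAMD9L lies near it, and OAS3 is positive at 24 h and negative at 48 h.

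Activation of MycER by OHT in siCtrl cells was compared with ethanol to ask how these genes respond to Myc. At 48 h, 12 of the 34 tested genes fell (35.3%, where 10.1% of all genes tested fell) and 1, ISG20, rose (2.94%, against 7.78% of all). Those that fell were OASL, IFI44, SAMD9L, IFIT1, STAT2, IFIT2, PARP9, PARP14, IFI6, SAMD9, DDX60 and HERC6. The median log2 fold change was -0.44, beside -0.01 for all genes tested, and 29 of 34 values were below 0. At 24 h, 12 genes fell (35.3%, against 5.1% of all) and 0 rose in limma (3.68% of all genes did), where 8.78% of all passed in either direction. Of the genes with values above 0 at 24 h, 2 had an unadjusted p below 0.05, and voom on the recovered reads also called 0.

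OASL, IFI44 and SAMD9L fell the most. OASL was at 4.38, 4.65 and 4.76 eRPKM in siCtrl and 0.655, 0.696 and 1.02 in siCtrl OHT cells at 48 h, or 89, 97 and 107 against 14, 14 and 21 reads. Every OHT library lay far below every control, and it fell by 1.99 on the log2 scale (SE 0.17, adjusted p = 4.59e-07). IFI44, an induced protein with antiviral activity, was at 11.9, 13.1 and 11.6 eRPKM in siCtrl and 3.67, 4.14 and 4.096 in siCtrl OHT cells. It fell by 1.504 (SE 0.081, adjusted p = 5.19e-09), without overlap. SAMD9L was at 1.88, 1.79 and 2.28 eRPKM in siCtrl OHT cells, below all controls, and fell by 1.31 on the log2 scale (SE 0.12). All of these had fallen at 24 h as well, by 1.38, 0.91 and 1.25 on the log2 scale.

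STAT2, the subunit of ISGF3 that activates transcription, was at 24.5, 25.4 and 26.6 eRPKM in siCtrl and 12.8, 13.95 and 13.9 in siCtrl OHT cells at 48 h. The groups were well apart, and it fell by 0.89 on the log2 scale (SE 0.045, adjusted p = 3.53e-09). At 24 h its value was -0.46 (adjusted p = 4.52e-05), short of the fold threshold. IRF1 gave 0.398 (adjusted p = 0.000231) at 48 h, a value above 0 that did not reach that threshold. SP100 and SP110 gave -0.404 and -0.38.

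In the IFIT family, IFIT1 was at 7.88, 9.25 and 9.33 eRPKM in siCtrl and 3.696, 3.97 and 3.93 in siCtrl OHT cells at 48 h, without overlap. It fell by 1.09 on the log2 scale (SE 0.075, adjusted p = 4.72e-08), and IFIT2, at 0.81, 1.07 and 0.871 eRPKM in siCtrl OHT cells, fell by 0.81 (SE 0.135, adjusted p = 0.000176). IFIT3 gave 0.06 (adjusted p = 0.43), and IFIT5 gave 0.47 (adjusted p = 2.89e-05), so that IFIT5 was at 16.3, 19.6 and 17.2 eRPKM in siCtrl and 23.1, 25.8 and 25.3 in siCtrl OHT cells. IFIT5 passed the fold threshold without siCtrl 48 h replicate 2 (0.55) or siCtrl OHT 48 h replicate 1 (0.52). 

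PARP9, an ADP-ribosyltransferase that works with the ubiquitin ligase DTX3L, was at 10.5, 10.7 and 10.3 eRPKM in siCtrl and 5.75, 5.98 and 6.93 in siCtrl OHT cells at 48 h, and fell by 0.72 on the log2 scale (adjusted p = 1.28e-06). PARP14 was at 26.8, 26.7 and 25.1 and 15.8, 15.8 and 16.4 eRPKM and fell by 0.69 (adjusted p = 1.6e-07). Neither had overlapping groups, whereas DTX3L, at 28.9, 28.7 and 28.9 and 24.9, 23.9 and 23.2 eRPKM, gave -0.26 and stayed short of the fold threshold. IFI6, which opposes cell death and flavivirus replication, was at 27.6, 30.7 and 29.1 eRPKM in siCtrl and 17.03, 19.4 and 20.5 in siCtrl OHT cells and fell by 0.61 (adjusted p = 0.000492).

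OAS3 gave -0.47, and -0.52 without siCtrl OHT 48 h replicate 1. The remaining calls at 48 h were near the fold threshold. SAMD9, at 10.3, 11.9 and 12.7 eRPKM in siCtrl OHT cells (-0.56), gave -0.48 without siCtrl OHT 48 h replicate 1. DDX60 (-0.545) gave -0.46 without siCtrl 48 h replicate 3 and -0.50 without siCtrl OHT 48 h replicate 1. HERC6, a ligase of the HERC family (-0.52), gave -0.47 without siCtrl 48 h replicate 2 and -0.495 without siCtrl OHT 48 h replicate 1. ISG20, an RNA exonuclease, was at 3.54, 4.42 and 3.82 eRPKM in siCtrl and 5.44, 6.06 and 6.47 in siCtrl OHT cells, where all OHT libraries were higher (log2 fold change 0.55, adjusted p = 0.000257). Without siCtrl 48 h replicate 1 its value was 0.49. At 24 h the calls that rested on single libraries were IFI35 (adjusted p = 0.0508 to 0.22 when 1 of 12 libraries was left out), IFIT2 (-0.32, -0.61 and -0.505 with an adjusted p of 0.0622 to 0.237 without siCtrl 24 h replicate 2, siCtrl OHT 24 h replicate 1 or replicate 2) and SAMD9 (-0.38 without siCtrl 24 h replicate 2 and -0.45 without siCtrl OHT 24 h replicate 2).

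The marker EPCAM moved with OHT as well. It rose from 4.65 ± 0.408 to 11.5 ± 1.28 eRPKM at 48 h (n = 3 each, log2 fold change 1.22, adjusted p = 2.51e-06). The summed level of the 8 markers of other cells was 6.23 to 7.21 eRPKM in siCtrl and 13.2 to 15.4 in siCtrl OHT libraries at 48 h, and 5.93 to 6.16 against 11.5 to 12.01 at 24 h. CD3E was listed at 0 in all siCtrl libraries. COL1A1 and RUNX2, of the 6 markers of the line, fell with OHT (log2 fold change -0.91 and -0.835). The part of these changes in the lower interferon-stimulated genes was not tested.

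In RAD21-silenced cells many of these genes were also lower with OHT. At 48 h, 16 of the 34 tested genes fell (47.1%, where 16.2% of all genes tested fell) and 2, IFIT5 and ISG20, rose (5.88%, against 12.4% of all). The median log2 fold change was -0.53, beside -0.02 for all genes tested. At 24 h, 17 of the 34 genes fell (against 7.62% of all) and 0 rose (4.29% of all genes did, 1 gene had an unadjusted p below 0.05, and voom on the recovered reads called 0). Of those that fell at 24 h, HERC6, IFIH1, OAS1, OAS3, OASL and SP110 lost their calls after quantile normalization. With the near-identical siRAD21 OHT libraries at 48 h averaged, 14 fell and 2 rose at 48 h. DDX60, IFI44, PARP14, PARP9, SAMD9 and SAMD9L fell in all 4 comparisons of OHT with ethanol, and DDX58, SP110, HERC6, IFIH1, RTP4 and STAT2 fell at both times in siRAD21 cells.

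SAMD9L fell the most, from 10.6 and 11.8 eRPKM in siRAD21 to 2.34 and 2.43 in siRAD21 OHT cells at 48 h. This is a drop of 2.02 on the log2 scale (SE 0.14, adjusted p = 5.29e-08), which left SAMD9L near the 1.88, 1.79 and 2.28 eRPKM of the siCtrl OHT libraries. SAMD9 was at 26.1 and 27.6 eRPKM in siRAD21 and 12.4 and 13.1 in siRAD21 OHT cells, and fell by 1.04 (adjusted p = 1.61e-06). STAT2 went from 26.6 and 27.9 to 13.4 and 14.3 eRPKM and fell by 0.95 on the log2 scale (SE 0.056, adjusted p = 9.27e-09). The groups did not overlap for these genes. This adds little to the test, since the genes were named from those called and the siRAD21 OHT pair counts as 1 sample.

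EPCAM was higher with OHT in siRAD21 cells too (log2 fold change 1.05, adjusted p = 5.09e-05), and the summed level of the 8 markers of other cells was 5.79 to 7.08 eRPKM in siRAD21 and 8.996 to 9.096 in siRAD21 OHT libraries at 48 h. COL1A1 and RUNX2 fell here too (log2 fold change -1.84 and -1.33), the median of the 4 tested markers of the line was -0.74, beside -0.02 for all genes, and the summed level of the 6 was 266 to 267 in siRAD21 and 213 to 216 in siRAD21 OHT libraries. The part of these markers in the results was not tested.

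DDX58, IFIH1 and DDX60 fell together. DDX58 was at 12.98 and 12.9 eRPKM in siRAD21 and 6.602 and 6.39 in siRAD21 OHT cells at 48 h, and fell by 0.94 on the log2 scale (adjusted p = 1.57e-06). IFIH1 was at 4.06 and 3.65 eRPKM in siRAD21 and 1.596 and 1.79 in siRAD21 OHT cells and fell by 0.99 (adjusted p = 1.16e-05), and DDX60, at 1.41 and 1.59 eRPKM in siRAD21 OHT cells, fell by 1.06 (adjusted p = 1.93e-05). The libraries of these groups were well apart, with the same limit. PARP9 was at 12.1 and 12.3 eRPKM in siRAD21 and 6.07 and 6.78 in siRAD21 OHT cells and fell by 0.88 on the log2 scale. IFI44, PARP14, HERC6, IFIT1 and SP110 fell by 0.82, 0.66, 0.63, 0.61 and 0.57 on the log2 scale. IRF7, the factor that amplifies interferon production, was at 3.55 and 2.69 eRPKM in siRAD21 and 0.839 and 1.28 in siRAD21 OHT cells and gave -1.22 ± 0.38 (adjusted p = 0.0127). Its spread was wide elsewhere: the siCtrl OHT libraries at 48 h were at 3.82, 1.17 and 1.51 eRPKM, and the call was lost without siRAD21 48 h replicate 1 (adjusted p = 0.0854) or siRAD21 OHT 48 h replicate 1 (adjusted p = 0.0905).

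Calls near the limits at 48 h were RTP4, TRIM21 and XAF1. RTP4, a chaperone of receptors, gave -0.55 (adjusted p = 0.0277), but an adjusted p of 0.0952, 0.0781 and 0.169 without siRAD21 48 h replicate 1, siRAD21 48 h replicate 2 and siRAD21 OHT 48 h replicate 1. With the near-identical pair averaged, RTP4 and XAF1 had adjusted p = 0.0821 and 0.0738. XAF1, which promotes cell death, gave -0.54, but -0.45 without siRAD21 48 h replicate 1 and -0.36 without siRAD21 OHT 48 h replicate 1. The mean of XAF1 over all libraries, 1.07 eRPKM, was just above the limit for testing. Its highest libraries were those of siRAD21 at 48 h, at 1.88 and 1.61 eRPKM, and without them it would not have been tested. Its fall is thus measured from the group that brought it into the test. TRIM21, an antibody receptor in the cytosol, was at 38.8 and 40.4 eRPKM in siRAD21 and 27.1 and 28.2 in siRAD21 OHT cells and gave -0.51, but -0.48 without siRAD21 48 h replicate 2 or siRAD21 OHT 48 h replicate 1. IFIT5 was at 12.2 and 12.5 eRPKM in siRAD21 and 19.8 and 21.1 in siRAD21 OHT cells and rose by 0.701 on the log2 scale (adjusted p = 4.12e-06). ISG20 went from 2.82 and 2.62 to 4.72 and 5.23 eRPKM and rose by 0.77 (adjusted p = 7.64e-05). At 24 h, 6 of the 17 calls were lost when a library was left out, namely DDX58 (-0.49 without siRAD21 OHT 24 h replicate 2), IFIH1 (-0.45 without the same library), OAS3 (-0.45 without the same library), SP110 (-0.47 without siRAD21 24 h replicate 1), OASL (-0.39 without siRAD21 24 h replicate 2 and -0.32 without siRAD21 OHT 24 h replicate 1) and OAS1 (adjusted p = 0.0526 to 0.204 when 1 of 12 libraries was left out).

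The siRAD21 OHT cells were also compared with siCtrl OHT cells, to see what siRAD21 did while MycER was active. At 48 h, 9 of the 34 tested genes were higher past both thresholds (26.5%, against 8.47% of all genes tested) and 0 were lower (7.74% of all were). Of the genes with values below 0, 6 had an unadjusted p below 0.05, and voom on the recovered reads called 1. The higher genes were IFIT2, OASL, IFIT3, SP110, IFI44, SP100, DDX58, PARP14 and DDX60. With the near-identical pair averaged, 9 genes were higher as well. IFIT2 was at 0.81, 1.07 and 0.871 eRPKM in siCtrl OHT and 6.85 and 8.22 in siRAD21 OHT cells, without overlap, with a log2 fold change of 2.503 ± 0.15 (adjusted p = 1.75e-08). IFIT3 and SP110 gave 1.54 and 1.41. SAMD9L and SAMD9, which rose with siRAD21 in ethanol, gave 0.22 and 0.13 here (adjusted p = 0.187 and 0.288). DDX60 gave 0.51, and 0.465 without siCtrl OHT 48 h replicate 1 and 0.45 without siRAD21 OHT 48 h replicate 2. At 24 h, SP110 (0.75) and SAMD9L (0.59) were the 2 genes past both thresholds (5.88%, against 3.74% of all), and 0 were lower (2.73% of all were, 4 genes had an unadjusted p below 0.05, and voom on the recovered reads called 0). Markers moved here as well. At 48 h EPCAM and CDH1 were lower in siRAD21 OHT than in siCtrl OHT cells (log2 fold change -0.66 and -0.58), with a summed level of the 8 markers of other cells of 13.2 to 15.4 eRPKM in siCtrl OHT and 8.996 to 9.096 in siRAD21 OHT libraries, and RUNX2 was lower too (-0.85). Their part in the result was not tested. SAMD9L at 24 h was not past the thresholds without siCtrl OHT 24 h replicate 2 (adjusted p = 0.0746) or siRAD21 OHT 24 h replicate 1 (0.40).

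The genes that rose with siRAD21 at 48 h had different values with OHT, although these comparisons share the siRAD21 libraries and their values are only set side by side. DDX58, DDX60, PARP14, SAMD9, SAMD9L and SP110 rose with siRAD21 and fell with OHT in siRAD21 cells. BST2, IFIT2, IFIT3 and SP100 rose with siRAD21 and gave -0.56, -0.39, -0.29 and -0.38 with OHT in siRAD21 cells, short of the thresholds.

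Whether the effect of OHT differed between siCtrl and siRAD21 cells was tested as an interaction. At 48 h it passed both thresholds for OASL, IFI44 and SAMD9L (7.3% of all genes tested passed it): 2 of 34 genes were positive (5.88%, against 3.33% of all genes tested) and 1 negative (2.94%, against 3.97%). After centring each library on its median, 2 were positive and 3 negative. OASL, at 4.38, 4.65 and 4.76 eRPKM in siCtrl and 0.655, 0.696 and 1.02 in siCtrl OHT cells, was at 4.0 and 5.26 in siRAD21 and 3.78 and 3.91 in siRAD21 OHT cells. Only the siCtrl OHT libraries were low, and the interaction was 1.76 ± 0.275 (adjusted p = 0.000779). IFI44 was at 13.6 and 13.8 eRPKM in siRAD21 and 7.34 and 7.78 in siRAD21 OHT cells, and its interaction was 0.69 ± 0.13 (adjusted p = 0.00245), since it fell less in siRAD21 than in siCtrl cells. SAMD9L gave -0.71 ± 0.185 (adjusted p = 0.018), as it fell more in siRAD21 cells. The SAMD9L interaction was lost without siRAD21 48 h replicate 2 (-0.63, adjusted p = 0.0701) or siRAD21 OHT 48 h replicate 1 (-0.69, adjusted p = 0.0675), and with the near-identical siRAD21 OHT pair averaged (-0.71, adjusted p = 0.0602). DDX58, TRIM21 and IFIT1 gave -0.496, -0.38 and 0.485 (adjusted p = 0.0141, 0.00746 and 0.0129), short of the fold threshold. At 24 h limma called 0 of the 34 genes, and 4 had an unadjusted p below 0.05. It called 0 of all genes tested at that time (0.0%), and voom on the recovered reads called 0 of the 34 and 19 in all.

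Some of these genes differed with time in siCtrl cells, where time in culture, after transfection and with ethanol cannot be told apart. Between 24 and 48 h in siCtrl cells, 6 of the 34 tested genes rose (17.6%, against 5.53% of all genes tested) and 0 fell (6.91% of all did, 3 genes had an unadjusted p below 0.05, and voom on the recovered reads called 0). OASL went from 1.797 and 1.82 to 4.38, 4.65 and 4.76 eRPKM, without overlap, a log2 fold change of 1.14 ± 0.195 (adjusted p = 0.000355). IRF7, IFIT2, XAF1, RTP4 and IFI44 gave 1.12, 0.597, 0.54, 0.53 and 0.503, and each of these 5 lost its call when siCtrl 24 h replicate 1 was left out, with values of 0.80 for IRF7, 0.36 for IFIT2, 0.48 for XAF1, 0.48 for RTP4 and 0.49 for IFI44. Calls of 4 of them were also lost without a siCtrl 48 h library, replicate 1 for IRF7 (0.89) and XAF1 (0.52), replicate 2 for RTP4 (0.36) and IFI44 (0.45) and replicate 3 for XAF1 (0.495) and RTP4 (0.50), and those of XAF1 and RTP4 without siCtrl 24 h replicate 2 (0.61 and 0.58). ISG15 gave -0.38 (adjusted p = 0.00411), with 49.7 and 41.6 eRPKM at 24 h and 35.1, 33.3 and 36.3 at 48 h.

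DTX3L, EIF2AK2, IRF1, ISG15, PLSCR1 and TRIM25 passed both thresholds in none of the 8 comparisons of siRNA or OHT. ISG15, the most abundant of them, was at 35.1, 33.3 and 36.3 eRPKM in siCtrl, 25.8, 27.2 and 28.8 in siCtrl OHT, 29.7 and 31.2 in siRAD21 and 29.9 and 32.7 in siRAD21 OHT cells at 48 h. The siCtrl OHT libraries lay below the siCtrl ones (log2 fold change -0.35, adjusted p = 0.00227), but the difference was short of the fold threshold. PLSCR1, a scramblase that restricts viral entry, gave -0.37 with siRAD21 at 48 h (adjusted p = 4.27e-05) and -0.08 with OHT. TRIM25, the ligase that activates RIG-I, gave 0.38 and 0.38 (adjusted p = 0.000352 and 0.000146).

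Of the 44 genes, 19 lie within 100 kb of another, in 8 clusters of paralogs or neighbours, and neighbours did not always move alike. On GRCh37 the IFIT genes lie at chr10:91043451-91181362, with IFIT2 first and the starts of IFIT3, IFIT1 and IFIT5 at 43.6, 108.9 and 130.9 kb from it, all on the plus strand. With siRAD21 at 48 h the first and second gene rose, by 2.08 and 1.89, while the other two gave -0.35 and -0.496. With OHT in siCtrl cells IFIT2 and IFIT1 fell, by 0.81 and 1.09 on the log2 scale, and IFIT3 and IFIT5 gave 0.06 and 0.47. SAMD9 and SAMD9L, whose left ends lie 30.5 kb apart at chr7:92728826-92777698 on the minus strand, had values of the same sign in all 8 comparisons of siRNA or OHT. OAS1, OAS3 and OAS2 lie in this order at chr12:113343661-113449528, where OAS3 fell with siRAD21 at 48 h and OAS1 gave 0.38 ± 0.20 (adjusted p = 0.125). PARP9 and DTX3L start head to head on chromosome 3 and share 139 exon bases. PARP9 fell with OHT in siCtrl cells at 48 h by 0.72 on the log2 scale, and DTX3L gave -0.26.

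**Figure D4:**
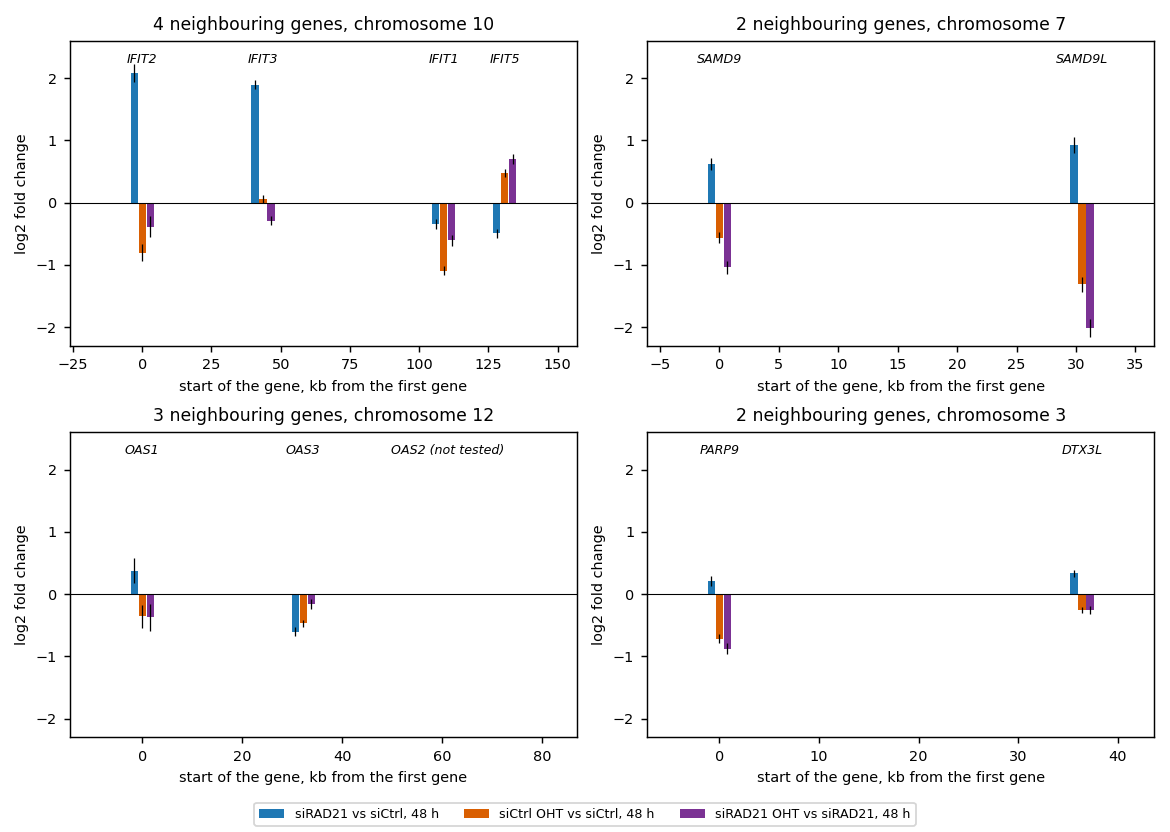
Log2 fold changes at 48 h with siRAD21 (blue), with OHT in siCtrl cells (orange) and with OHT in siRAD21 cells (purple) of 4 groups of neighbouring genes, with standard errors. Bars stand at the left end of each gene in kb from the first, and bars of 1 gene are set side by side for legibility. The axis calls this end the start, but SAMD9, SAMD9L and PARP9, on the minus strand, begin at their right ends. IFIT2 and IFIT3 have tall blue bars (2.08 and 1.89) and IFIT1 and IFIT5 blue bars below 0, while SAMD9 and SAMD9L share the sign of all 3 bars.

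The ligands of the pathway were low. None of the 21 interferon genes in the table reached a mean of 1 eRPKM. IFNB1 was listed at 0 in 15 of 18 libraries. It was at 0.109 and 0.117 eRPKM in the siRAD21 libraries at 48 h and 0.0968 in 1 siCtrl OHT library at 24 h. Values this low rest on very few reads, so no difference between groups can be read from them. IFNK, an interferon of keratinocytes, had its highest group mean in siRAD21 cells at 48 h, at 0.774 to 0.884 eRPKM, beside 0.0900 to 0.526 in siCtrl cells, and was not tested.

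Of 9 receptor and JAK kinase genes, 2 rose with siRAD21 at 48 h (12.6% of all genes tested rose). JAK1 went from 32.1 ± 1.24 (n = 3) to 51.7 ± 2.35 eRPKM (n = 2), by 0.68 on the log2 scale (adjusted p = 5.32e-08), and JAK2 rose by 0.57 (adjusted p = 0.000514). With OHT in siCtrl cells 1 of the 9 fell (10.1% of all genes tested fell), the receptor subunit IFNAR2, by 0.57 on the log2 scale (adjusted p = 0.000733). SOCS1, a feedback inhibitor of JAK kinases, fell with siRAD21 by 0.79 on the log2 scale (adjusted p = 0.00777).

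Among 12 tested genes of nucleic acid sensing upstream of interferon, 4 rose and 2 fell with siRAD21 at 48 h, where 12.6% of all genes tested rose and 11.2% fell. TMEM173, which encodes the adaptor STING, went from 4.32 ± 0.471 (n = 3) to 19.7 ± 0.327 eRPKM (n = 2), by 2.07 ± 0.12 on the log2 scale (adjusted p = 8.5e-09). TLR3, the endosomal receptor of double-stranded RNA, rose by 1.21, the DNA sensor IFI16 by 0.815 and the kinase IKBKE by 0.78 (adjusted p = 1.63e-06, 4.72e-08 and 9.69e-06). MB21D1, which encodes the DNA sensor cGAS upstream of STING, fell by 0.81 on the log2 scale, and SAMHD1, which degrades nucleotides, fell by 1.05 (adjusted p = 2.62e-06 and 1.73e-06). With OHT in siCtrl cells 2 of the 12 rose and 3 fell (7.78% and 10.1% of all genes tested). TLR3, IFI16 and MAVS, the adaptor of RIG-I, fell by 0.601, 0.54 and 0.56 on the log2 scale, and TRAF3 and TICAM1 rose by 0.82 and 0.54.

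Of 38 further interferon-stimulated genes that were tested, 4 rose and 3 fell with siRAD21 at 48 h (median log2 fold change 0.14), which is 10.5% and 7.89% and no more than the 12.6% and 11.2% of all genes tested. With OHT in siCtrl cells 3 rose and 9 fell (median -0.28), or 7.89% and 23.7%, against 7.78% and 10.1% of all. The transcription factor BATF2 rose with siRAD21 by 2.12 and GBP3, a guanylate-binding GTPase, by 0.898 (adjusted p = 1.33e-06 and 2.49e-06). UBA7, which activates ISG15 for conjugation, fell with OHT by 1.37 on the log2 scale, and the complement genes SERPING1 and C1R fell by 1.18 and 1.18. With OHT in siRAD21 cells 13 of the 38 fell and 3 rose (median -0.30), or 34.2% and 7.89%, against 16.2% and 12.4% of all. Of 16 antigen presentation genes, 2 rose and 1 fell with siRAD21 at 48 h, again beside 12.6% and 11.2% of all. ERAP1 and TAP1 rose with siRAD21 by 0.84 and 0.598, and NLRC5, the transactivator of class I genes, fell by 0.66 on the log2 scale. Their median log2 fold change was 0.12 with siRAD21 and -0.07 with OHT.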

How the data were processed

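The authors sequenced RNA from U2OS-MycER cells depleted of ribosomal RNA (50-base reads, a TruSeq RNA v2 kit that does not mark strand), trimmed bases with a quality below 20, aligned reads to hg19 with TopHat2 2.0.8 and counted exonic reads per gene with featureCounts 1.4.5 after removal of PCR duplicates. The deposited values are eRPKM, an RPKM over exons in which the authors divided the reads of a gene by its exon length and by the reads on genes. The gene annotation they used is not given in the sources used here.

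All libraries were mapped to groups by their labels. Values were fitted as log2(eRPKM + 0.5) with limma 3.58.1 in R 4.3.3, with 1 mean per group over all 18 libraries, a variance trend and Benjamini-Hochberg adjustment over 14993 genes with a mean of at least 1 eRPKM. Contrasts compared siRAD21 with siCtrl, OHT with ethanol, their interaction, and the times. The fit was tested on simulated data. Values were whole multiples of 1 read for all 23399 genes within a tolerance of 0.02, which gave the reads and depth of each library (9647501 to 12678599 reads on genes). One call rule, an adjusted p below 0.05 with a log2 fold change past 0.5, was used throughout. Alternatives changed the pseudocount, the filter, the scaling, the libraries in the fit, the replicate block, the variance trend and the fold threshold, used voom on the recovered reads, averaged the near-identical siRAD21 OHT libraries at 48 h and left out each library in turn. Undoing the removal of duplicates and crossing the siCtrl 24 h numbers were chosen after seeing the data.

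Deviations from the group means, compared between libraries with the same replicate number, correlated at 0.258, 0.13 and 0.157 for siCtrl with siCtrl OHT at 48 h. The other pairs of groups gave -0.134 to 0.146, with 0.099 and 0.146 for siCtrl with siRAD21 at 48 h. The labels state no pairing, and the main fit used no block. Gene positions are those of GENCODE v44 lifted to GRCh37, and promoter sequences are those of RefSeq on GRCh38.p14.

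The genes, the pathway lists and the tests were chosen with earlier results of these data known. Given per library are, by rule, the 10 genes with the largest log2 fold change among those called with siRAD21, with OHT in siCtrl cells and with OHT in siRAD21 cells at 48 h. The most abundant gene of each role is also given per library, though not in every group. All genes called for the interaction or the difference between times are named, with up to 5 called genes of each pathway list. Other names were chosen after their values were seen. Some genes of these lists are not reported here.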

Additional observations from a re-analysis of the deposited data

Results flagged for a closer look

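The effect of OHT differed between siCtrl and siRAD21 cells at 48 h by a test of the interaction in limma for 3 genes. Of the 34 genes, 5.88% were positive and 2.94% negative, near the 3.33% and 3.97% of all genes tested. The difference of log2 fold changes was 1.761 for OASL, 0.686 for IFI44 and -0.707 for SAMD9L, with Benjamini-Hochberg adjusted p = 0.000779, 0.00245 and 0.018. OASL fell in siCtrl cells and gave -0.23 in siRAD21 cells, IFI44 fell in both and less in siRAD21 cells, and SAMD9L fell in both and more in siRAD21 cells. These comparisons share no library between siCtrl and siRAD21 cells, but the near-identical siRAD21 OHT pair at 48 h enters each.

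The effect of siRAD21 differed between 24 and 48 h for 6 genes. The difference was positive for 14.7% of the 34 genes and negative for 2.94%, against 3.85% and 6.86% of all genes tested. It was larger at 48 h by 1.829 for IFIT2, 1.263 for IFIT3, 0.715 for SP110, 0.679 for DDX60 and 0.562 for DDX58 on the log2 scale. For OAS3 the difference was -0.766, with a positive value at 24 h and a drop at 48 h. RAD21 itself stood at 18.4 eRPKM in siRAD21 cells at 24 h and 11.2 at 48 h (means of 2 libraries), and the part of that difference in the later changes was not tested.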

How the results depend on the processing

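Of 3742 recomputed values of single genes, 3563 kept their direction and their side of the thresholds, 161 lost a call, 14 gained one and 4 changed sign. Many of these values come from leaving out a library of a group outside the comparison. The fold change cannot move then, and only the shared estimate of the spread does, so the 3563 do not measure how stable the calls are. After quantile normalization IFI6 with siRAD21 at 48 h gave 0.002, and with OHT in siRAD21 cells at 48 h ISG15 gave -0.096 and OAS3 0.029. ISG15 also gave -0.028 to 0.102 there when a library was left out, the lowest without siRAD21 OHT 48 h replicate 2. HERC6, IFIT1, RTP4 and XAF1, called with OHT in siRAD21 cells at 48 h, gave -0.409, -0.455, -0.318 and -0.315 after quantile normalization. At 24 h in these cells HERC6, IFIH1, OAS1, OAS3 and SP110 gave -0.426, -0.382, -0.442, -0.46 and -0.478. OASL gave -0.518 there, with a limma adjusted p of 0.143. With OHT in siCtrl cells the calls of IFIT2 and OAS3 at 24 h and of DDX60 and HERC6 at 48 h were lost in this setting. The cause was not tested.

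Without the fold threshold, the tested genes called were 11 and 21 with siRAD21 at 24 and 48 h, 21 and 24 with OHT in siCtrl cells, 10 and 15 with siRAD21 under OHT, 11 for the interaction at 48 h and 12 between times in siCtrl cells. With genes of a mean of at least 5 eRPKM, where fewer genes were tested, 7 and 8 were called with OHT in siCtrl cells, 10 and 11 with OHT in siRAD21 cells and 1 between times. The interaction at 48 h gave 5 calls after centring on the median, 7 after quantile normalization, 7 with voom and 5 with the removal of duplicates undone. Of all genes tested, voom called 1223 for this interaction, where the main fit called 1094. There was 1 call for siRAD21 under OHT at 24 h after quantile normalization and there were 2 between times with a pseudocount of 1.

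Leaving out each library in turn gave 3 to 7 and 10 to 13 calls with siRAD21 at 24 and 48 h, 10 to 13 and 12 to 15 with OHT in siCtrl cells, 14 to 17 and 14 to 20 with OHT in siRAD21 cells, and 1 to 3 and 9 to 10 with siRAD21 under OHT. It gave 0 to 0 and 3 to 6 for the interaction, 4 to 7 for the difference between 48 and 24 h, and 2 to 6 between times in siCtrl cells. The lowest count with siRAD21 at 24 h, 3, came without siCtrl 24 h replicate 1. Where a group was left with 1 library, that library was assumed to vary like the others.

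With replicate numbers as a block, 7 and 12 genes were called with siRAD21 at 24 and 48 h, 11 and 13 with OHT in siCtrl cells, 17 and 18 with OHT in siRAD21 cells, 2 and 11 with siRAD21 under OHT, 0 and 3 for the interaction, 7 for the difference between 48 and 24 h and 4 between times. The block changed no call of OHT in siCtrl cells at 48 h. With the siCtrl 24 h numbers crossed, a choice made after seeing the data, the block gave 7, 12, 12, 14, 17, 19, 2, 11, 0, 3, 7 and 3 calls in the same order.

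The reads of low genes limit what can be seen: OASL had 5 to 112 reads in a library, IFI35 5 to 35 and BST2 18 to 75.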

Other observations

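Values of genes that entered no comparison were as follows. CMPK2, a mitochondrial nucleotide kinase next to RSAD2, was at 0.774 to 0.979 eRPKM in siCtrl, 0.414 to 0.495 in siRAD21 libraries at 48 h, opposite in order to RSAD2, which was at 0.370 to 0.672 and 1.06 to 1.10. Both genes share 351 exon bases, whose reads cannot be assigned to 1 of them. IFI27 ranged from 0 to 1.74 eRPKM over all libraries.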
